A study of Bos taurus with 24 samples.

Results

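A set of 48 genes, out of 24616 listed for bovine monocyte-derived macrophages (MDMs), was higher in cells exposed to E. coli for 3 h than in their control wells and was back at, or below, the control level at 18 h. The members were selected on the measured response itself. The response of a gene in a cow is the log2 CPM (read counts scaled to the size of the library) of the exposed well minus that of the control well with the same code number, and it was averaged over the 6 pairs of a time point. A gene was kept if its mean CPM reached 5 in exposed or control wells at either time point, if its mean response at 3 h was at least 1.5 (a 2.83-fold rise) and if its mean response at 18 h was at most 0.3 (1.23-fold). Of the 9727 genes past the CPM floor, 466 met the first threshold and 48 met both, which leaves 418 other genes induced at 3 h. Because the responses chose the members, their responses to E. coli are described here with no test, and tests are kept to the comparison of high with low responders. The rule took no account of responder group, but it averaged over the same pairs of wells, so that a gene could become a member through 1 group. There were 18 members with a mean response under 1.5 at 3 h in low responders and 1 in high responders, and at 18 h 9 members were above 0.3 in high responders and 3 in low responders. Counts and medians over the members in this comparison are therefore descriptions, and the share of all genes printed beside a count gives its background and is not evidence about the members as a set.

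The cells came from female, lactating Holstein cows that had been assigned to a high or a low responder group by their in vitro nitric oxide response to E. coli. Blood mononuclear cells were allowed to attach, and the adherent cells were kept for 6 days in serum-free medium with 5 ng/ml of the bovine form of GM-CSF, a growth factor that drives monocytes towards macrophages. For each cow and time point, 1 well was left untreated and 1 well received E. coli that had been inactivated with paraformaldehyde (PFA), at a multiplicity of infection (MOI) of 5 bacteria per cell, so that no result here concerns live or growing bacteria. There were 3 cows per responder group at each time point and 24 libraries in all. The code numbers were 92, 93 and 94 (high) and 91, 92 and 93 (low) at 3 h, and 91, 93 and 94 (high) and 91, 92 and 94 (low) at 18 h. The study used 6 cows in all, each with wells at both time points, so that the time points share their cows. A code number names a pair of wells within 1 group and time point, and the same number at the other time point need not be the same cow; cows were not linked across the time points here. Each time point was a plate of its own, and time and plate cannot be told apart. Responder group is a phenotype of 3 cows, and whatever else differed between these cows cannot be told apart from it.

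Toll-like receptors on macrophages sense bacterial components such as lipopolysaccharide and switch on genes in waves. Immediate-early genes, whose promoters are ready before the stimulus, rise first, and many of them are shut off again by their own products, by feedback inhibitors and by rapid decay of their mRNA. Secondary genes, among them those driven by interferon that the macrophages release, come later, and genes of both kinds can return to their starting level while the stimulus is still present.

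The libraries held between 6297190 and 20936554 expected counts, with a median of 12375480, of which the top 10 genes of a library made up 8.57% to 13.6%. Of the macrophage markers looked for, 5 of 10 (CD14, CD68, MSR1, FCGR3A and AIF1) had an identifier, and their summed level was between 1698 and 3934 TPM (transcript abundance scaled to gene length and library size) in the 24 libraries, with none of them at 0. The single B cell marker with an identifier, CD79A, was between 0.17 and 2.67 TPM and the single neutrophil marker, LTF, between 0 and 0.82 TPM. Markers of T and NK cells, dendritic cells, platelets and red cells carried no symbol here and were not looked at. In these bulk samples, fewer cells of a type and less RNA per cell cannot be told apart.

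Among the members, 12 (25%) could be given a symbol, and 11 of these are described. They were the chemokine gene CCL8, the interferon-induced genes USP18 and HERC6, the immediate-early transcription factor gene EGR1, the receptor gene GPR65, the RELT-like gene RELL1, the sterol regulator gene INSIG1, the transporter genes SLC29A1 and SLC13A3, and STOX1 and MOB3C. The other 36 are known here by identifier only. Symbols were taken from lists of the study that are partly ordered by the difference between responder groups at 18 h, so that genes that differ there are more likely to have one.

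At 3 h, the members' mean responses ranged from 1.52 to 4.90, with a median of 1.99, a 3.97-fold rise. There were 6 members with a response of 3 or more, 16 between 2 and 3 and 26 under 2. All 48 were above control in 6 of 6 cows, and the lowest response of any member in any cow was 0.37. At 18 h, the mean responses ranged from -3.94 to 0.28, with a median of -0.11. In 18 members the response was at or below -0.3, so that exposed wells ended lower than control wells, and in 30 it lay between -0.3 and the threshold. There were 7 members below control in 6 of 6 cows at 18 h, 0 above control in 6 of 6, and 41 in which cows went both ways. The lowest responses inside the 3 h threshold were 1.52 and 1.52, and those just outside it 1.49 and 1.49. At the 18 h threshold, MOB3C was just inside with 0.27, while PSAT1, which encodes an enzyme of serine synthesis (0.33 at 18 h and 2.10 at 3 h), and the kinase gene PIM1 (0.35 and 1.70) were just outside.

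**Figure D1:**
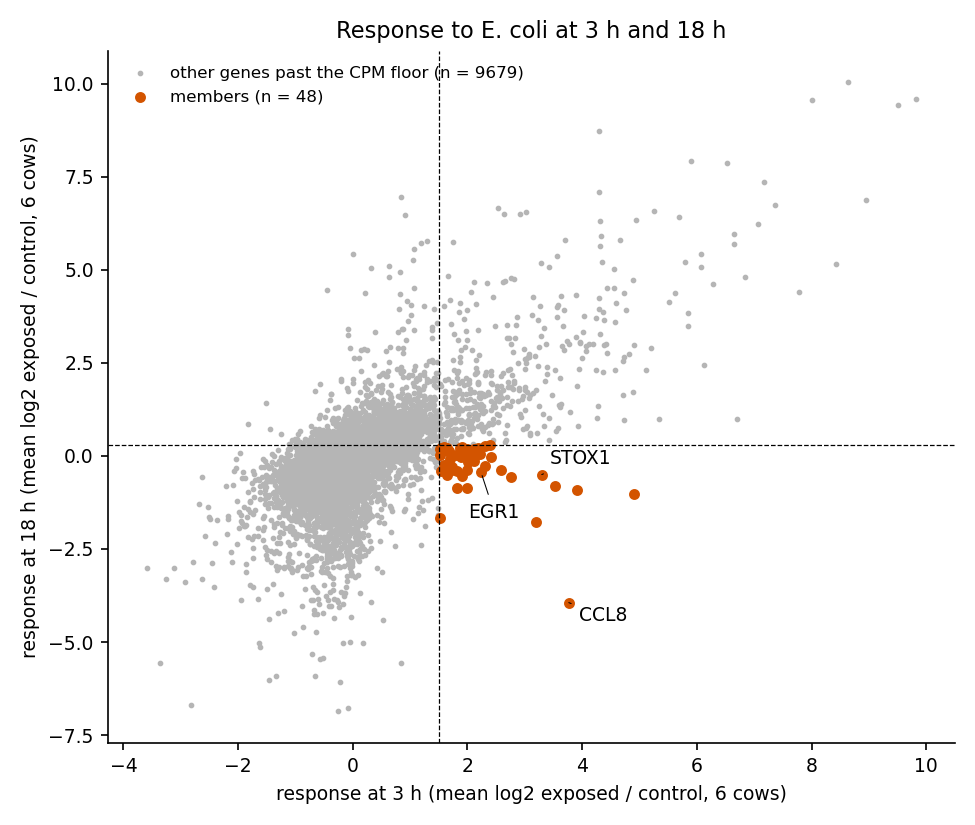
Mean response at 3 h (x axis) and at 18 h (y axis), as log2 of exposed over control, for every gene past the CPM floor; each point is 1 gene, and dashed lines mark the thresholds of 1.5 and 0.3. The 48 members fill the lower right corner by construction, CCL8 lies far below the rest of them at 18 h, and the other genes induced at 3 h lie above the line.

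In most members the exposed wells, and not the control wells, carried the change over time. With the 24 libraries in 1 normalization, the members' control level changed by a median of 0.08 (log2) from 3 h to 18 h, and their exposed level fell by 2.05. In 41 of the 48 members (85.4%), the control level moved by less than 0.5. The share was 91.1% in the other 418 induced genes and 93.3% in the 11218 genes tested at both time points. The control level rose by 0.5 or more in 5 members and fell by 0.5 or more in 2. One of the latter, ENSBTAG00000008832, fell by 1.93 in control wells and by 4.09 in exposed wells. In the other 418 induced genes, the median control change was 0.03 and the exposed level fell by 0.68, and their median response was 2.45 at 3 h and 1.73 at 18 h. Since the rule fixed the response at both times, the exposed change is part of how the members were chosen.

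**Figure D2:**
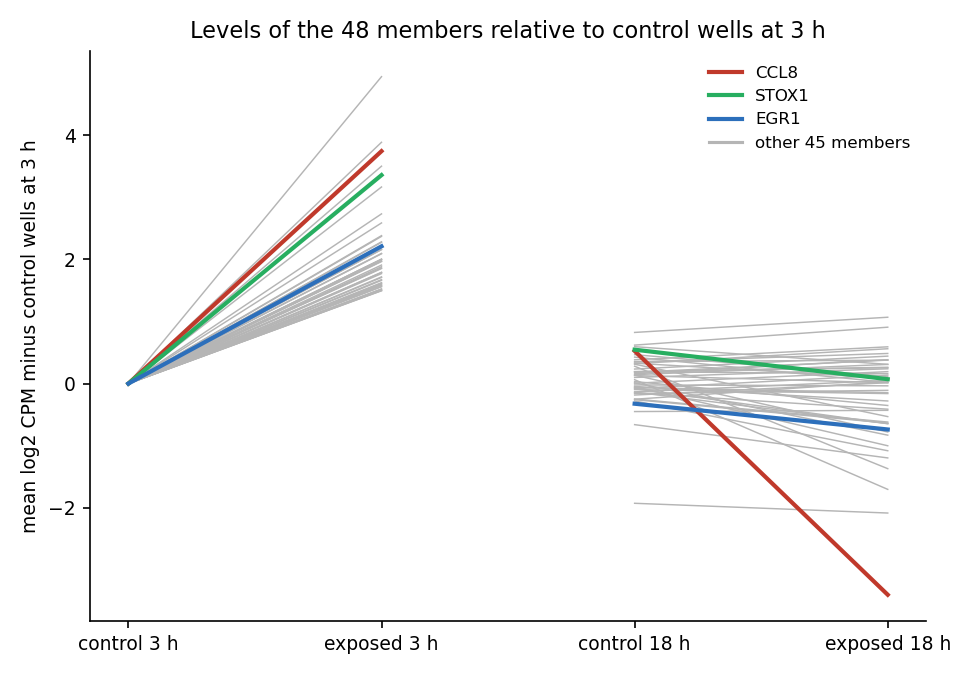
Mean log2 CPM of each of the 48 members in control and exposed wells at 3 h and 18 h, relative to the control wells at 3 h (y axis), with the 24 libraries in 1 normalization; lines join the control and exposed means of a time point (6 libraries each). Grey lines rise at 3 h, and most lie near their own control at 18 h. Others end below it, such as ENSBTAG00000003191, ENSBTAG00000009177 and CCL8, with responses at 18 h of -1.78, -1.67 and -3.94. On the plotted scale their exposed means at 18 h are -1.70, -1.37 and -3.40. ENSBTAG00000008832 ends at -2.09 on this scale, near its own control at -1.93.

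Gene structure was not used by the rule, and level entered it only through the CPM floor. Members had a median transcript length of 2193 bases (quartiles 1488 and 2912), against 1897 in the other induced genes and 1944 in the genes tested at both times. One transcript was annotated for 46 members (95.8%), against 89.0% of the other induced genes and 90.4% of all tested. Their median level in control wells at 3 h was 12.8 TPM, below the 17.1 TPM of the other induced genes and the 19.2 TPM of all tested. Exposed levels at 3 h ran from 5.30 to 1539 CPM, with 20 members at 100 CPM or more and 6 under 10. No member had a fractional expected count in any library, and a fractional count is the trace that RSEM leaves where it divides reads between genes.

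CCL8, a chemokine that attracts monocytes and other leukocytes, was the most abundant member in exposed wells at 3 h and had the deepest fall below control at 18 h. Its level in control wells at 3 h was 117, 26.2 and 31.9 CPM in high responders and 273, 291 and 177 CPM in low responders, in the order of the code numbers, which is kept in all that follows. In exposed wells at 3 h it was 1760.2, 1829 and 583 CPM in high and 1736, 1809 and 1518 CPM in low responders. Every exposed well was above every control well at 3 h, and the control wells of the 2 groups did not overlap, while 2 of the 3 high responder wells reached the low responder level after exposure. At 18 h, control wells held 223, 88.0 and 109.7 CPM in high and 288, 203 and 211 CPM in low responders, and exposed wells held 26.0, 33.3 and 8.60 CPM in high and 3.45, 4.28 and 16.5 CPM in low responders. By then the order had turned over in 6 of 6 cows, with every exposed well below every control well. The response was 3.77 ± 1.32 (SD, n = 6 cows) at 3 h, a 13.6-fold rise, and -3.94 ± 1.76 at 18 h, which is 15.4-fold lower than control.

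The other genes of the chemokine list with a symbol, among them the chemokine receptor-like gene CCRL2, did not follow CCL8 down. All 7 of them rose at 3 h, and all 7 were still higher in exposed wells at 18 h (edgeR quasi-likelihood test with Benjamini-Hochberg adjustment over all genes, adjusted p below 0.05 and a fold above 1.5, the rule for a call in all that follows). The share of all genes that rose was 13.2% at 3 h and 15.1% at 18 h. CCL4, which attracts monocytes and T cells, was up by 4.90 (SE 0.32) at 3 h and by 2.98 (SE 0.18) at 18 h. The neutrophil attractants CXCL2 (4.72, SE 0.21, and 4.38, SE 0.09) and CXCL8 (4.55, SE 0.21, and 4.52, SE 0.15) held nearly the same effect at both times. Over these 7 genes, the median effect was 4.34 at 3 h and 2.98 at 18 h.

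USP18 and HERC6 are induced by interferon. USP18 encodes a protease that removes the ubiquitin-like protein ISG15 from its targets and limits interferon receptor signalling, and HERC6 encodes a ubiquitin ligase of the HERC family. USP18 was at 75.9, 25.9 and 16.7 CPM in high and 121, 176 and 136 CPM in low responder control wells at 3 h, and at 315, 153 and 49.6 CPM in high and 381, 410.1 and 301 CPM in low responder exposed wells. At 18 h, it was at 61.8, 20.4 and 48.6 CPM in high and 138, 131 and 141 CPM in low responder control wells, and at 56.8, 29.4 and 54.0 CPM in high and 121, 114 and 85.6 CPM in low responder exposed wells. In 3 of these 4 conditions the groups did not overlap, with high responders lower, and in exposed wells at 3 h a single high responder, 92, reached above the lowest low responder. Its response was 1.70 ± 0.53 (SD, n = 6) at 3 h and -0.09 ± 0.42 at 18 h.

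HERC6 followed the same order. Control wells at 3 h held 94.2, 31.9 and 22.1 CPM in high and 148, 248 and 218 CPM in low responders, and exposed wells held 403, 242 and 65.4 CPM in high and 372, 549 and 362 CPM in low responders. At 18 h the control wells of high responders, at 68.2, 23.4 and 66.3 CPM, lay below those of low responders, at 206, 205 and 211 CPM, and exposed wells held 78.4, 25.2 and 88.5 CPM in high and 151, 123 and 105 CPM in low responders. The response was 1.63 ± 0.78 at 3 h and -0.24 ± 0.57 at 18 h (SD, n = 6). Behind the 18 h mean near 0 stood 2 directions, since HERC6 was above control in 3 of 3 high responders and below control in 3 of 3 low responders.

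Of the interferon response genes on the list that are not members, 11 had a symbol and were tested. At 3 h, 10 of the 11 rose, with a median of 2.66, and at 18 h 8 of the 11 were still up, with a median of 0.65. GBP5, a guanylate-binding protein (4.67, SE 0.13, and 4.13, SE 0.10), and the transcription factor gene IRF1 (4.30, SE 0.14, and 3.95, SE 0.09) held most of their effect. RSAD2 went from 3.56 (SE 0.30) at 3 h to 2.32 (SE 0.12) at 18 h and was still up. IFIT1, named here after its values were seen, went from 3.54 (SE 0.17) to 0.62 (SE 0.22). RTP4, named likewise, went from 1.14 (SE 0.13) to -0.10 (SE 0.10), which did not pass the test at 18 h.

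EGR1 encodes a zinc finger transcription factor and is an immediate-early gene. Its control level at 3 h was 26.9, 18.6 and 35.7 CPM in high and 40.5, 43.7 and 33.2 CPM in low responders, and its exposed level 107, 184 and 94.9 CPM in high and 189.6, 247 and 134 CPM in low responders. At 18 h, controls were at 33.2, 33.5 and 24.9 CPM in high and 32.4, 24.2 and 26.5 CPM in low responders, and exposed wells at 33.9, 31.4 and 20.3 CPM in high and 20.3, 11.9 and 18.7 CPM in low responders. Exposed and control wells did not overlap at 3 h, and at 18 h they overlapped in high responders but not in low responders, whose exposed wells were lower. The response was 2.23 ± 0.63 at 3 h and -0.42 ± 0.39 at 18 h (SD, n = 6).

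Most other immediate-early factors stayed up. Of the 10 on the list that are not members, 8 rose at 3 h and 7 were up at 18 h. NR4A1, an orphan nuclear receptor, went from 5.35 (SE 0.26) to 2.49 (SE 0.23). MAFF, a small Maf factor, went from 3.74 (SE 0.19) to 3.096 (SE 0.11), and NR4A3 went from 3.47 (SE 0.48) to 1.32 (SE 0.26). JUN rose by 0.93 (SE 0.11) at 3 h and was at 0.55 (SE 0.06) at 18 h, under the fold needed for a call.

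The remaining lists did not share 1 course. Of 82 tested list genes outside the members, 64 rose and 3 fell at 3 h, and 59 were higher and 11 lower in exposed wells at 18 h. Over all genes, 12.5% fell at 3 h and 21.4% were lower at 18 h. The median effect of these 82 genes was 2.24 at 3 h and 1.32 at 18 h, against -0.04 and -0.02 over all genes tested. Of the 64 that rose, 58 were still up at 18 h, 5 (JUN, GADD45B, PIM1, RTP4 and IRF9) were not called and 1, ETV5, a transcription factor gene of the ETS family, had turned down, from 1.24 (SE 0.13) to -1.44 (SE 0.12). Of the 3 Notch pathway genes tested, 1 rose at 3 h, and 1 was higher and 2 lower at 18 h, with a median of -0.88. Of the 5 regulators of G protein-coupled receptors and cyclic AMP, 2 rose and 1 fell at 3 h, with a median of 0.50, and 2 were higher and 3 lower at 18 h, with a median of -1.21. Of the 6 MAP kinase phosphatases and Sprouty inhibitors, 2 rose and 2 fell at 3 h, and 3 were higher and 2 lower at 18 h. All 10 genes of NF-kB subunits and inhibitors rose and stayed up, with medians of 3.22 and 1.47. Among the cytokines, IL6 went from 6.77 (SE 0.27) to 1.11 (SE 0.34), while CSF2, which encodes GM-CSF, held 7.19 (SE 0.54) and 7.38 (SE 0.18), and IL1B held 7.07 (SE 0.41) and 6.22 (SE 0.20). Only 88 of the 291 list genes had an identifier, and these lists were drawn up with results of these data known.

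**Figure D3:**
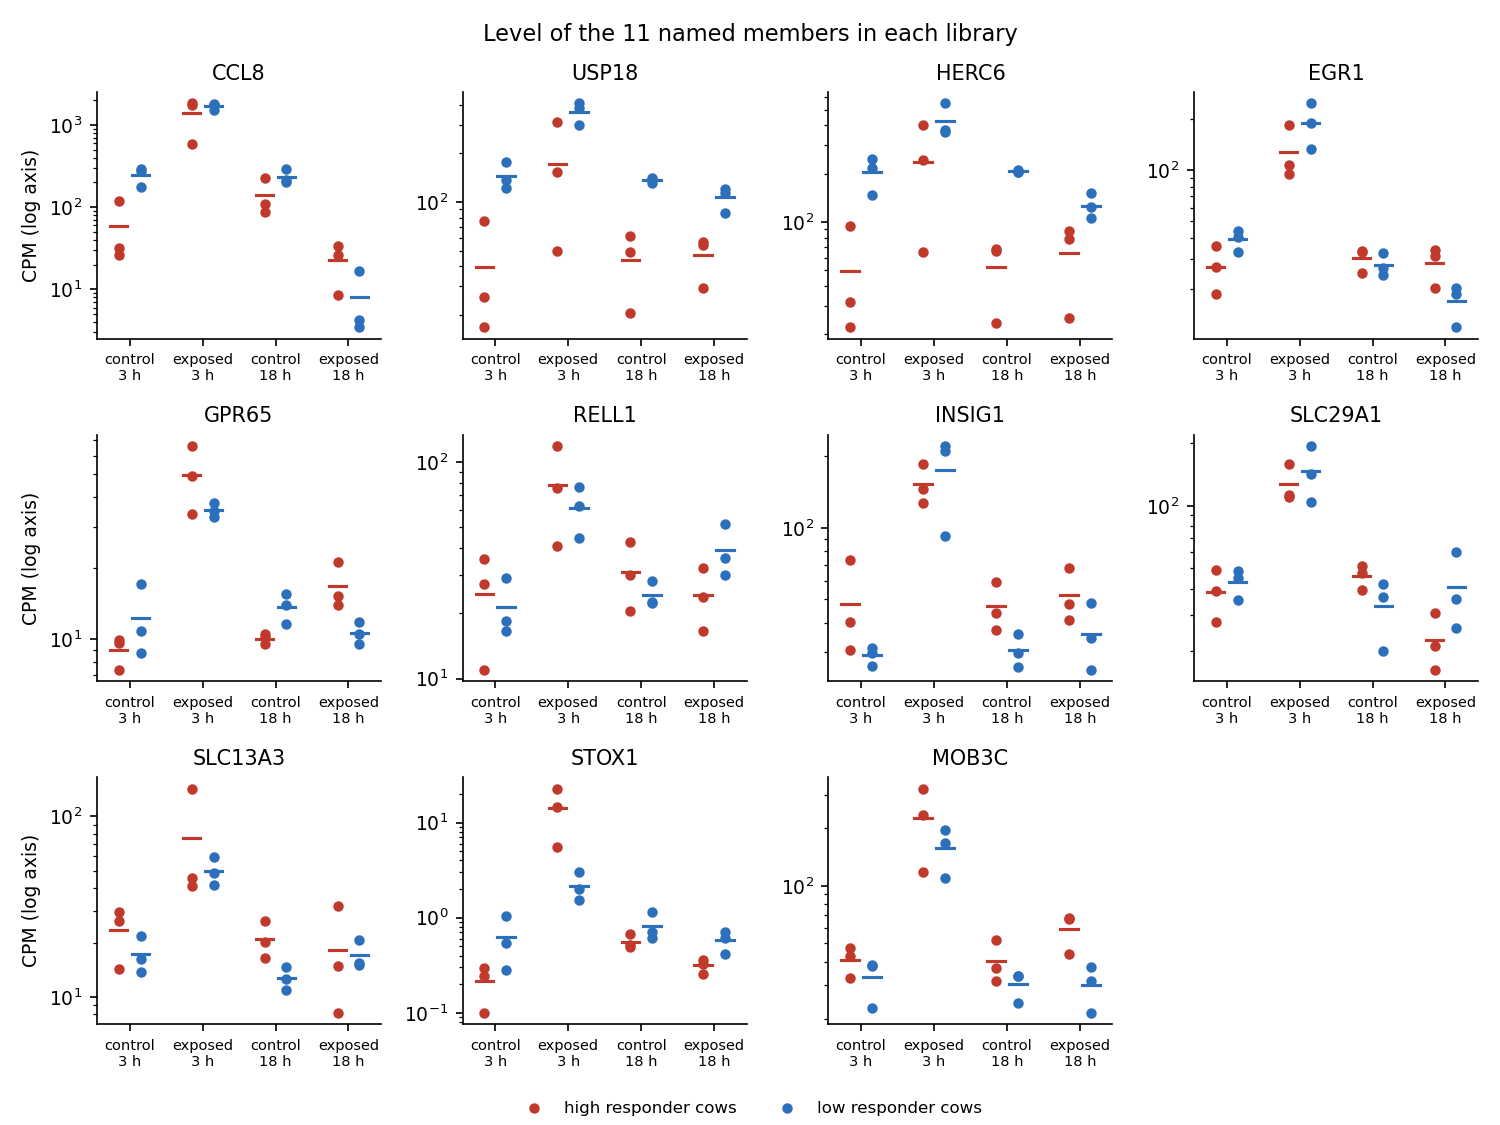
CPM (log y axis) of the 11 named members in each of the 24 libraries; points are single wells, red for high and blue for low responder cows, and short lines are the means of 3. In each panel exposed wells at 3 h are highest, in the mean of either group, and the low responders lie above the high responders in the control wells of USP18 and HERC6.

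GPR65 encodes a receptor that senses extracellular protons and raises cyclic AMP in leukocytes. It was at 9.57, 7.37 and 9.93 CPM in high and 8.74, 17.1 and 10.8 CPM in low responder control wells at 3 h, and at 34.1, 66.0 and 49.1 CPM in high and 32.9, 37.6 and 34.9 CPM in low responder exposed wells. At 18 h, control wells held 10.1, 9.48 and 10.4 CPM in high and 15.6, 11.5 and 13.9 CPM in low responders, and exposed wells held 13.9, 21.2 and 15.1 CPM in high and 11.8, 9.53 and 10.5 CPM in low responders. High responders thus lay below low responders in control wells and above them in exposed wells at 18 h, with no overlap in either. The response was 1.99 ± 0.67 at 3 h and 0.18 ± 0.63 at 18 h (SD, n = 6).

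RELL1 encodes a membrane protein related to RELT, a receptor of the tumour necrosis factor receptor family. At 3 h, its control wells held 27.4, 35.5 and 10.9 CPM in high and 29.1, 18.4 and 16.7 CPM in low responders, and its exposed wells 75.8, 118 and 41.1 CPM in high and 76.4, 62.8 and 44.6 CPM in low responders. At 18 h, control wells held 42.5, 20.5 and 29.9 CPM in high and 22.5, 28.3 and 22.2 CPM in low responders, and exposed wells held 32.4, 16.5 and 23.7 CPM in high and 30.1, 51.8 and 35.9 CPM in low responders. The levels of the 2 groups overlapped in all 4 conditions, but within cows the direction at 18 h was split, with exposed below control in 3 of 3 high responders and above control in 3 of 3 low responders. The response was 1.61 ± 0.21 at 3 h, the smallest SD among these 11, and 0.16 ± 0.57 at 18 h.

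STOX1 encodes a DNA-binding protein of the winged helix type. It was barely detected in control wells at 3 h, with 2, 2 and 5 counts in high and 3, 4 and 14 counts in low responders, and exposed wells held 127, 117 and 62 counts in high and 13, 11 and 39 counts in low responders. As levels, the exposed wells held 22.6, 14.7 and 5.58 CPM in high and 1.52, 1.99 and 2.99 CPM in low responders, with no overlap. At 18 h, all 12 wells were between 0.26 and 1.15 CPM, and the gene was too low to be tested. Its response at 3 h was 4.99 ± 1.24 in high and 1.60 ± 0.24 in low responders (SD, n = 3), and with so few control counts these values depend on the prior count.

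INSIG1, which holds the sterol-sensing complex of cholesterol synthesis in the endoplasmic reticulum, had a response of 2.11 ± 0.68 at 3 h and 0.18 ± 0.24 at 18 h. At 3 h it was the named member with the strongest lead of low responders, with 2.48 ± 0.74 in low and 1.75 ± 0.46 in high responders, and the cows of the groups overlapped.

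Both transporters had mean responses of opposite sign in the responder groups at 18 h. SLC29A1, an equilibrative nucleoside transporter, had a response of 1.73 ± 0.53 at 3 h and -0.39 ± 0.95 at 18 h (SD, n = 6). At 18 h it was below control in 3 of 3 high responders (-0.89, -1.54 and -0.74) and above it in 2 of 3 low responders (0.71, 0.83 and -0.70). SLC13A3, a sodium-coupled carrier of dicarboxylates such as succinate, had a response of 1.52 ± 0.57 at 3 h and 0.01 ± 0.63 at 18 h, with 18 h means of -0.39 ± 0.63 in high and 0.41 ± 0.35 in low responders (SD, n = 3). Its low responder mean was above 0.3, so that SLC13A3 met the 18 h threshold through the high responders. MOB3C, of the MOB family of kinase activators, had a response of 2.31 ± 0.31 at 3 h and 0.27 ± 0.38 at 18 h, and its exposed level at 18 h was 59.6 ± 13.5 CPM in high and 30.2 ± 8.07 CPM in low responders (SD, n = 3).

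The comparison of high with low responders asked whether the early rise and its return differed between cows that make more and less nitric oxide. The median response over the members at 3 h was 2.27, 2.77 and 1.99 in the 3 high responders and 1.58, 1.77 and 1.45 in the 3 low responders, while the median over all genes tested was between -0.07 and 0.01 in each cow. The fitted difference, high minus low, was positive in 42 of 48 members (87.5%), with a median of 0.85 (quartiles 0.34 and 1.34), against 52.8% and 0.03 over all genes tested. Among the other 418 induced genes, 92.8% were positive and the median was 0.78, and the difference between these 2 sets was not tested. The 18 members under the threshold in low responders, against 1 in high responders, belong to these counts, and nothing about the members as a set is read from them.

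A single member, ENSBTAG00000006223, passed the test of that difference at 3 h, against 0.204% of all 11264 genes tested. Its mean response was 3.38 in high and 1.43 in low responders, so that it met the 3 h threshold through the high responders, and its selection was not independent of this difference. At an unadjusted p below 0.05 there were 25 members, all higher in high responders, against 12.6% of all genes, and with adjusted p below 0.1 there were 5 against 1.05%. In 16 members every high responder cow had a larger response than every low responder cow, against 10.7% of all genes, and the reverse held in 0, against 9.22%. The reach of the test turned on 1 cow and on the tool. Without high responder 94, whose median response was the lowest of its group, 20 members were called, against 4.18% of all genes, all higher in high responders and among them CCL8, STOX1, USP18 and HERC6. USP18 and HERC6 met the 3 h threshold through the high responders, so that their calls are not independent of their selection. DESeq2 on the 12 libraries called 12 members against 1.67% of all genes, among them CCL8, STOX1 and HERC6, and edgeR with no term for the cow called 0, with 0 also when a term for exposure by code number (91 and 92 against 93 and 94) was added.

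ENSBTAG00000006223, which has no symbol here, was at 17.0, 45.4 and 19.0 CPM in high and 18.8, 25.1 and 20.9 CPM in low responder control wells at 3 h. In exposed wells it was at 149, 421 and 272 CPM in high and 44.7, 56.4 and 77.2 CPM in low responders. Control wells overlapped and exposed wells did not. The responses were 3.11, 3.21 and 3.83 in high and 1.24, 1.16 and 1.88 in low responders, a difference of 1.95 (SE 0.26, edgeR adjusted p = 0.0290), and leaving out any 1 cow other than high responder 94 brought the adjusted p to between 0.0611 and 0.202. At 18 h its difference was 0.45 (SE 0.30, edgeR adjusted p = 0.494).

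STOX1 had the next nearest call among members with a symbol at 3 h, with a difference of 4.03 (SE 0.73, edgeR adjusted p = 0.0706), and responses of 5.72, 5.69 and 3.57 in high and 1.86, 1.56 and 1.38 in low responders. CCL8 differed by 1.92 (SE 0.51, edgeR adjusted p = 0.189), with no overlap of cows. HERC6 differed by 1.13 (SE 0.32, adjusted p = 0.227) and USP18 by 0.73 (SE 0.26, adjusted p = 0.322), both by edgeR and neither past the threshold. The mean response in low responders was 1.07 for HERC6 and 1.34 for USP18, under 1.5. Both genes thus met the 3 h threshold through the high responders, and their selection was not independent of these differences. EGR1, SLC29A1, SLC13A3, MOB3C and RELL1 had differences between -0.02 and 0.18 at 3 h. With SEs of up to 0.43, such values leave room for differences of either sign.

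**Figure D4:**
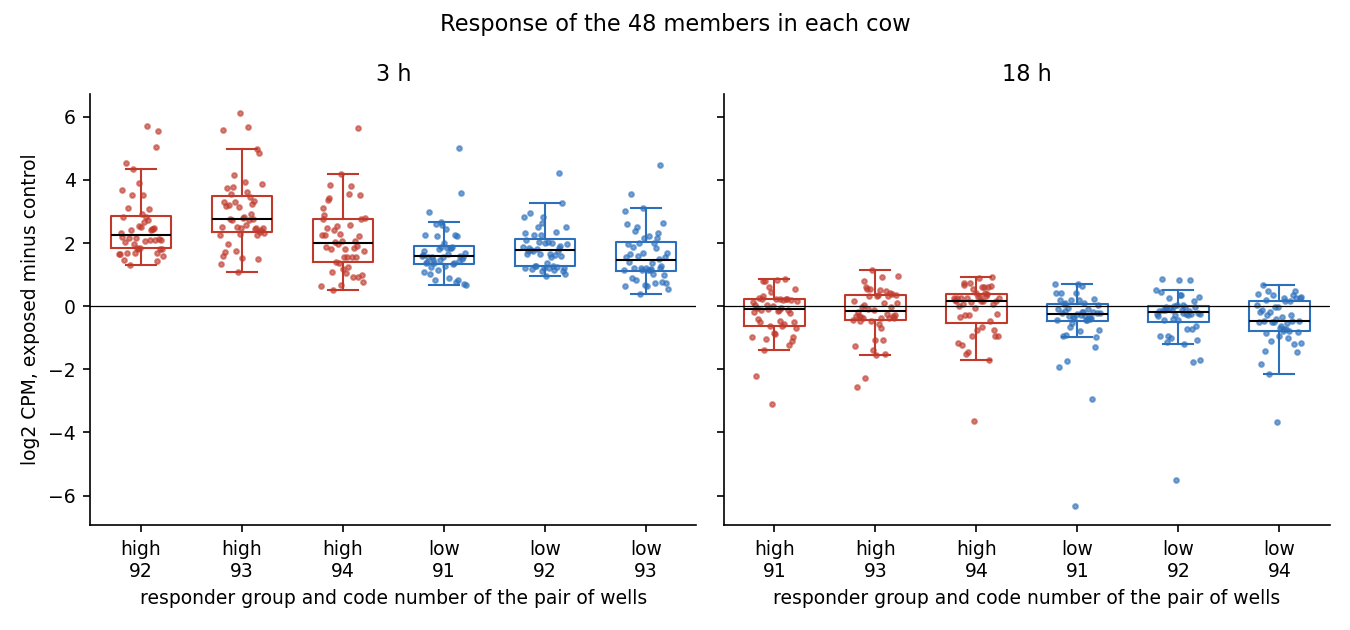
Response (log2 CPM, exposed minus control) of the 48 members in each cow at 3 h (left) and 18 h (right); points are genes, boxes show the median and quartiles, red for high and blue for low responders, whose code numbers stand on the x axis. At 3 h the 3 high responder medians, 1.99 to 2.77, lie above the 3 low responder medians, 1.45 to 1.77, and at 18 h the medians lie between -0.46 and 0.16.

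At 18 h, 4 of the 47 members tested differed in response between the groups, 3 of them higher and 1 lower in high responders, against 1.63% of all 11759 genes tested. At an unadjusted p below 0.05 there were 13 members, 10 higher and 3 lower, against 17.5% of all genes. The median response over the members was -0.10, -0.15 and 0.16 in the 3 high and -0.24, -0.18 and -0.46 in the 3 low responders. The difference was positive in 33 of 47 members (70.2%), with a median of 0.15, against 48.2% and -0.01 over all genes tested and 88.0% and 0.53 in the other induced genes. In 9 members every high responder was above every low responder, against 11.8% of all genes, and in 3 every high responder was below every low responder, against 11.1%. DESeq2 called 5 members against 3.36% of all genes, the same 4 and SLC29A1. edgeR with no term for the cow called 0, and with the term for exposure by code number it called 2.

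HERC6 was higher in response in high responders at 18 h, with 0.20, 0.10 and 0.42 in high and -0.45, -0.73 and -1.001 in low responders, a difference of 0.98 (SE 0.16, edgeR adjusted p = 0.0199). GPR65 was higher likewise, with 0.44, 1.15 and 0.53 in high and -0.39, -0.27 and -0.40 in low responders, a difference of 1.08 (SE 0.22, edgeR adjusted p = 0.0393). For RELL1 the order was the opposite, with -0.39, -0.31 and -0.33 in high and 0.42, 0.87 and 0.69 in low responders, a difference of -1.02 (SE 0.15, edgeR adjusted p = 0.0139). In each of these 3 genes, the exposed wells were on one side of control in every high responder and on the other side in every low responder.

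ENSBTAG00000011911, the other member called at 18 h, has no symbol here. Its control wells at 18 h held 14.5, 14.0 and 15.04 CPM in high and 21.4, 24.2 and 26.8 CPM in low responders, and its exposed wells 22.3, 20.7 and 16.4 CPM in high and 14.7, 18.2 and 19.1 CPM in low responders. The control wells of the groups did not overlap, with high responders lower, and the exposed wells did. The responses were 0.61, 0.55 and 0.13 in high and -0.54, -0.41 and -0.49 in low responders, a difference of 0.92 (SE 0.17, edgeR adjusted p = 0.0328). At 3 h the difference was 0.68 (SE 0.23, edgeR adjusted p = 0.312).

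The mean response at 18 h was above 0.3 in high responders for GPR65 and ENSBTAG00000011911 and in low responders for RELL1, so that these 3 met the 18 h threshold through the other group. These calls at 18 h were thin. Leaving out 1 cow at a time, RELL1 lost its call without low responder 92 (adjusted p = 0.0686) or 94 (0.0511), and HERC6 without high responder 91 (0.0504) or 94 (0.0509) or low responder 92 (0.109) or 94 (0.0637), all by edgeR. GPR65 lost it without any 1 of the 6 cows (0.0510 to 0.155), and ENSBTAG00000011911 without any 1 of 5, high responder 94 being the exception (0.0676 to 0.122). The size of each difference moved little, and the direction stayed in every one of these fits.

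Other members with a symbol came near the threshold at 18 h. MOB3C differed by 0.60 (SE 0.16, edgeR adjusted p = 0.0993) and EGR1 by 0.62 (SE 0.17, edgeR adjusted p = 0.101), both higher in high responders. The mean response of MOB3C was 0.57 in high and -0.03 in low responders. It thus met the 18 h threshold of 0.3 through the low responders, and its selection was not independent of this difference. SLC29A1 differed by -1.35 (SE 0.38, edgeR adjusted p = 0.105) and passed in DESeq2. CCL8 had the largest difference of the named members at 18 h, 2.39 (SE 0.70, edgeR adjusted p = 0.117), with responses of -3.10, -1.40 and -3.65 in high and -6.32, -5.52 and -3.67 in low responders, so that the fall below control was deeper in each low responder.

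**Figure D5:**
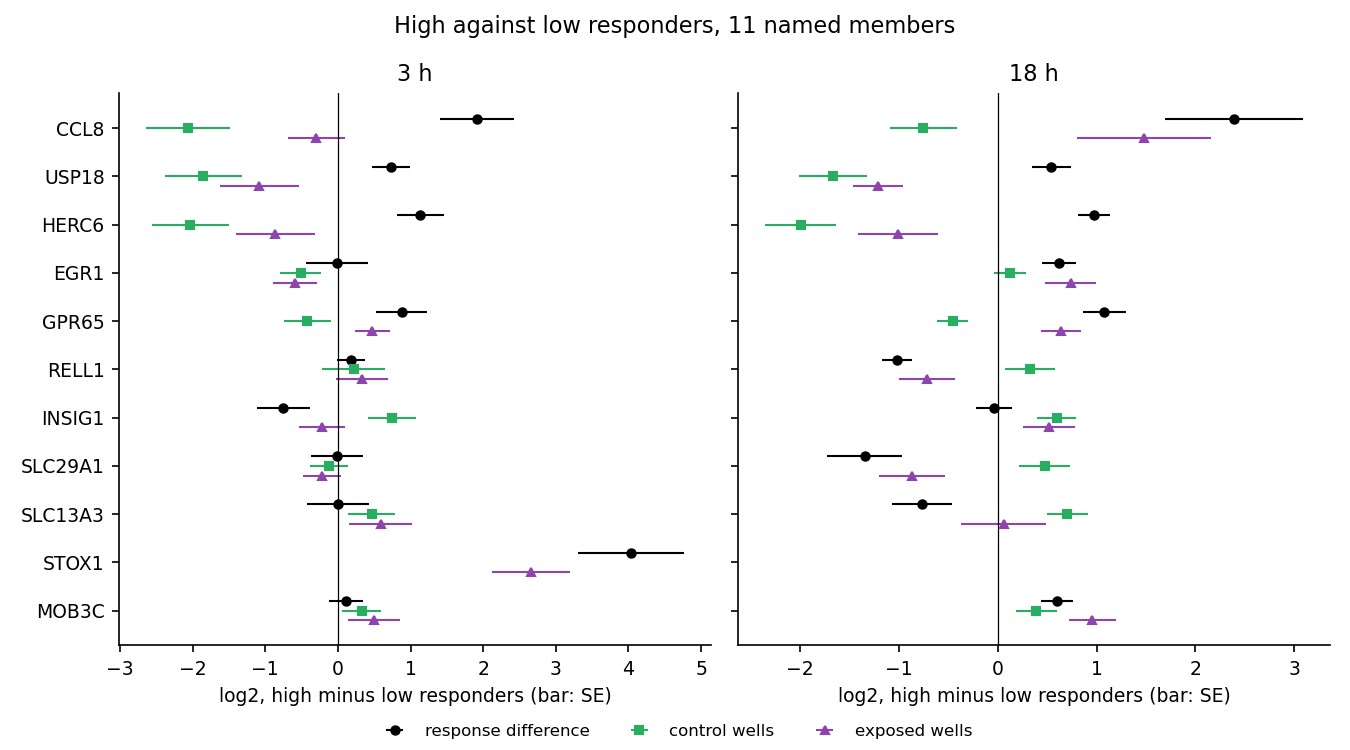
Fitted log2 difference, high minus low responders (x axis), for the 11 named members at 3 h (left) and 18 h (right); circles are the difference in response, squares that in control wells and triangles that in exposed wells, and bars are 1 SE. CCL8, USP18 and HERC6 lie left of 0 in control wells and right of 0 in response at both time points, and STOX1 has values only where it passed the filter on low counts.

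A difference in response can come with a difference in the control wells, the exposed wells or both, and these tests share their libraries with the tests above. In control wells at 3 h, edgeR called 0 of 47 members, against 0.00906% of all genes. There were 12 at an unadjusted p below 0.05 (2 higher and 10 lower in high responders), against 7.95% of all genes, and DESeq2 called 8, against 2.18%, each of them lower in high responders and among them CCL8, USP18 and HERC6. In control wells at 18 h, edgeR called 0 of 45, against 0.15% of all genes. There, 19 had an unadjusted p below 0.05 (8 higher and 11 lower), against 21.7%, 9 passed at an adjusted p below 0.1, against 4.48%, and DESeq2 called 11, against 6.08%.

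In exposed wells at 3 h, edgeR called 0 of 48 members, against 0.0932% of all genes. At an unadjusted p below 0.05 there were 19 (16 higher and 3 lower), against 12.6%, and DESeq2 called 9, against 2.64%. In exposed wells at 18 h, 1 of 45 was called, against 0.0446% of all genes, 5 passed at an adjusted p below 0.1, against 2.07%, 20 had an unadjusted p below 0.05, against 18.2%, and DESeq2 called 9, against 5.69%. The 1 called member was ENSBTAG00000009768, which has no symbol here. Its exposed wells at 18 h held 11.4, 8.9 and 6.4 CPM in high and 100.8, 105.6 and 51.4 CPM in low responders, a difference of -3.27 (SE 0.33, edgeR adjusted p = 0.0423). Its control wells at 18 h held 23.7, 6.1 and 18.0 CPM in high and 126, 109.2 and 109.6 CPM in low responders (-2.87, SE 0.41, edgeR adjusted p = 0.0575), so that high responders had the lower level with and without E. coli, and its response did not pass the test at either time point.

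The named interferon-induced members had the same order in control wells. HERC6 was lower in high responders by a log2 difference of -2.03 (SE 0.53, edgeR adjusted p = 0.297) at 3 h and -1.996 (SE 0.36, edgeR adjusted p = 0.0657) at 18 h. USP18 differed by -1.86 (SE 0.53, edgeR adjusted p = 0.351) at 3 h and -1.67 (SE 0.35, edgeR adjusted p = 0.0689) at 18 h. CCL8 differed by -2.07 (SE 0.58, edgeR adjusted p = 0.339) at 3 h and -0.75 (SE 0.34, edgeR adjusted p = 0.249) at 18 h. None of these passed the test in edgeR, and in each of them but CCL8 at 18 h the wells of the groups did not overlap.

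The 11 interferon response genes outside the members moved with them. In control wells, 11 of the 11 were lower in high responders at 3 h, with a median difference of -2.37 against 0.04 over all genes tested, and 11 of 11 at 18 h, with a median of -2.06 against 0.00. edgeR called 0 of them at 3 h and 1 at 18 h, against 0.00906% and 0.15% of all genes. The 1 called was STAT2, a transcription factor of the interferon receptor pathway. Their response was larger in high responders in 11 of 11 at both time points, with medians of 1.45 at 3 h and 1.27 at 18 h. The test called 2 at 3 h (IFIT1 and GBP5) and 8 at 18 h (IRF9, IFIH1, ISG15, GBP5, RSAD2, CMPK2, IRF1 and RTP4). Over all genes tested, it called 0.204% at 3 h and 1.63% at 18 h. In exposed wells at 18 h, 8 of 11 were lower in high responders, with a median of -0.55 and 0 called. Other lists had the same order. In the chemokine list, 7 of 7 genes at 3 h and 6 of 7 at 18 h were lower in high responder control wells. Their response was larger in high responders in 7 of 7 at both times. Of the 10 immediate-early factors, 9 at 3 h and 8 at 18 h were lower in control wells, and 8 had the larger response at each time. In the other induced genes, 24.6% were higher in high responder control wells at 3 h and 40.6% at 18 h, against 55.2% and 50.3% of all genes. Their response difference was positive in 92.8% at 3 h and 88.0% at 18 h, against 52.8% and 48.2% of all genes. This order was thus not particular to the lists. The control level of interferon genes moved with the response differences of USP18 and HERC6, and its part in them was not tested.

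The rule averages over both groups, and applying it to each group by itself gave sets of unequal make-up. The 3 high responder pairs alone gave 68 genes and the 3 low responder pairs alone 41, with 21 in both (30.9% of the first and 51.2% of the second). Of the 48 members, 38 were in the high responder set and 28 in the low responder set. Of the 68 genes chosen in high responders, 24 reached 1.5 at 3 h in low responders, 67 were above 0 there (median 1.25), and 61 were at or below 0.3 at 18 h. Of the 41 chosen in low responders, 39 reached 1.5 at 3 h in high responders (median 2.72), and 22 were at or below 0.3 at 18 h. Genes chosen in high responders mostly missed the 3 h threshold in low responders, and those chosen in low responders, where they failed in high responders, mostly failed at 18 h. These counts reuse the values of the rule, and nothing about the responder groups is read from them. In the other induced genes, the cows' median response at 3 h was 2.67 to 3.17 in high and 2.02 to 2.19 in low responders. At 18 h it was 1.84 to 2.33 in high and 1.33 to 1.75 in low responders.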

How the data were processed

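Reads were cleaned by the authors with Trimmomatic, inspected with FastQC 0.11.5, aligned by STAR to bovine build UMD 3.1 and quantified per gene with RSEM; they tested with DESeq2 1.22.2. The deposited tables hold expected counts, which the authors estimated with RSEM and did not normalize, TPM scaled by the authors' RSEM to the library, and transcript length, for 24616 genes in each library. Between 492 and 852 genes per library had a fractional expected count. Expected counts were rounded and scaled by TMM over all genes of a time point with edgeR 4.0.16 in R 4.3.3. Responses used log2 CPM with a prior count of 2.

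Tests were edgeR quasi-likelihood F tests on genes past filterByExpr, with Benjamini-Hochberg adjustment over all genes tested, and a call needed an adjusted p under 0.05 and a fold above 1.5. The test of the response had a term for each cow and the contrast of the E. coli effect in high minus low responders, after the study's methods. Control and exposed wells were paired by code number, which the labels do not spell out. Deviations from the group means correlated at 0.33 to 0.73 for the 12 same-numbered pairs and at -0.57 to 0.01 in the 24 with different numbers. Since deviations from a mean of 3 wells sum to 0, different numbers fall below 0 on balance once same-numbered pairs are above it. The second range is therefore no separate support for the pairing. Tests within control or exposed wells compared 3 with 3 libraries. p-values measure the spread between 3 cows per group, and an exact permutation test of a single gene could not go below 0.1. The scripts were tested on simulated data.

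The members and the gene lists were chosen with earlier results of these data known. Named genes were the members with a symbol, members called in a test, those at the thresholds and, per list, up to 3 other genes with the largest effect at 3 h. Others were named after their values were seen. These include IFIT1, RTP4 and genes named for their course or their call, such as JUN, ETV5, GADD45B, IRF9 and STAT2. Symbols came from identifier and symbol pairs in the study's supplementary lists (2803 identifiers); 1 member with a symbol is not reported here. The authors' fold changes and p-values in those lists were not used. Alternatives were other scalings, filters, prior counts, thresholds and tools, fits without the cow term, and leaving out each cow. No sequence or coordinate is given, because no genome of the build was used here.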

Additional observations from a re-analysis of the deposited data

Results flagged for a closer look

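At 3 h, 1 member was picked out because its response differed between the responder groups by a test of the difference itself: ENSBTAG00000006223, with a high minus low difference of 1.95 (log2, SE 0.26, edgeR adjusted p = 0.0290), larger in 3 of 3 high responders than in any low responder. Its mean in low responders, 1.43, was under the 3 h threshold, so that its selection was not independent of this difference. At 18 h, 4 members were picked out by that test. RELL1 differed by -1.02 (SE 0.15, edgeR adjusted p = 0.0139), HERC6 by 0.98 (SE 0.16, edgeR adjusted p = 0.0199), GPR65 by 1.08 (SE 0.22, edgeR adjusted p = 0.0393) and ENSBTAG00000011911 by 0.92 (SE 0.17, edgeR adjusted p = 0.0328). In each of these 4, the response had the same sign in 3 of 3 cows of a group and the opposite sign in 3 of 3 of the other. For RELL1, GPR65 and ENSBTAG00000011911, the 18 h mean of a group was above 0.3, so that their selection was not independent of this difference. HERC6 and ENSBTAG00000011911 were also lower in high responder control wells at 18 h, by log2 differences of -1.996 and -0.75, and the part of this in the response difference was not tested. Groups of 3 were too small for a search for single outlying wells.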

How the results depend on the processing

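The number of members was 120 with a 3 h threshold of 1, 22 with 2, 28 with an 18 h threshold of 0 and 74 with 0.6, and 40 to 57 without a single cow at a time point. Members called for the 3 h response numbered 5 with no filter, 12 in DESeq2, 5 at adjusted p below 0.1, 4 among members at a 3 h threshold of 1, 0 with no replicate block, 0 with the code number term and 0 to 20 without single cows (20 without high responder 94, 0 without each of the other 5). For the 18 h response they numbered 0 with no replicate block, 2 with the code number term, 8 and 0 at 3 h thresholds of 1 and 2, and 0 to 2 without single cows, and the median difference was 0.092 to 0.26. Without the block, 10 members at 3 h and 5 at 18 h had an unadjusted p below 0.05, against 2.92% and 9.75% of all genes. With the code number term there were 21 at 3 h, against 7.22% of all genes. For the interferon genes outside the members the counts were 7 (no filter), 7 (DESeq2), 5 (adjusted p below 0.1), 0 (no replicate block), 0 (code number term) and 0 to 8 (single cows) at 3 h, and 0 (no replicate block), 4 (code number term) and 2 to 7 (single cows) at 18 h. In control wells, members called were 8 in DESeq2 and 0 to 4 without single cows at 3 h (4 without high responder 92). At 18 h they were 6 with no filter, 11 in DESeq2, 9 at adjusted p below 0.1, 1 at a 3 h threshold of 1 and 0 to 7 without single cows (7 without high responder 93). In exposed wells they were 4 with no filter, 9 in DESeq2 and 0 to 2 without single cows (2 without high responder 92) at 3 h, and 9 in DESeq2, 5 at adjusted p below 0.1 and 0 to 1 without single cows at 18 h, with 0 without any cow but low responder 94. Leaving out high responder 94 took the called share of all genes at 3 h from 0.204% to 4.18%. For the other fits without single cows, or with no filter, no share of all genes is given. Their counts are therefore not read as results about the members or the interferon genes. Differences near 0 changed sign: SLC13A3 at 3 h (-0.0082 in DESeq2, -0.41 to 0.49 without single cows), SLC29A1 at 3 h (0.33 with the code number term, -0.39 to 0.24), EGR1 (-0.55 to 0.43) and MOB3C (-0.10 to 0.35) at 3 h and INSIG1 at 18 h (-0.27 to 0.082). The causes were not tested, apart from fewer cows or more genes tested in the fits so built. The members' median 3 h difference stayed between 0.61 and 0.99 without single cows, with 36 to 46 positive. Depth limits genes such as STOX1, with 2 to 14 counts in control wells at 3 h, and 3 cows per group limit every call.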
